A study of Mus musculus with 6 samples.

Results

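Cultured carcinoma cells were set against a carcinoma biopsy in mouse skin carcinogenesis. The lines mSCC-20 and mSCC-38 were isolated from tumours raised with DMBA and TPA. DMBA is a carcinogen that mutates keratinocytes, and TPA is a tumour promoter that makes the mutated cells grow. The submitters call mSCC-20 non tumorigenic and mSCC-38 highly tumorigenic, and the word cultured stands only in the label of mSCC-20. The biopsy was 1 DMBA/TPA tumour, and both lines and the tumour had therefore been through the same carcinogen treatment. These are 3 of the 6 libraries of the series. The other libraries were 2 papillomas, the benign growths of the same treatment, and 1 healthy skin. The sources used here do not give the strain, age or sex of the mice, the culture medium or passage, or whether either line came from the tumour that was sequenced. The lines are 2 separate samples of cultured cells and not replicates of 1 line, and each is a single line of cells.

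A squamous carcinoma is a mixed tissue. Its keratinocytes lie among fibroblasts that lay down collagen, blood vessels, and leukocytes drawn in by the tumour. Within the epithelium, dividing basal cells express keratins 5 and 14 and the factor p63, and cells that leave the basal layer switch to keratins 1 and 10 and to the proteins of the cornified envelope. Cells put into culture leave the stroma behind, meet serum or growth factors on plastic, and usually divide fast. In a bulk library, fewer cells of a type and less RNA per cell cannot be told apart.

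The libraries held 31045938 counts for mSCC-20, 30955914 for mSCC-38 and 42992597 for the tumour. RNA integrity numbers were 9.3 for mSCC-20, 9.6 for mSCC-38 and 9.1 for the tumour, against 7.5 to 8.4 for the other biopsies. Levels are in CPM, counts per 1000000 counts after TMM scaling between libraries. Where a gene had no count, its level could still be that of 3 counts: 0.0974 CPM in mSCC-20, 0.0905 CPM in mSCC-38 and 0.0712 CPM in the tumour. A low level may not be a sign of expression: 17 hair genes that exceeded 500 CPM in skin still had a median of 0.0720% of their skin level in mSCC-20 (highest 0.429%) and 0.0456% in mSCC-38 (highest 0.182%). A level in a line that is so small a share of another library's is read here as possible background. Its source was not tested, and a fold taken from it is not exact. Intervals and floors cover counting error only.

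Genes are described in 2 ways. Under the rule of size, which has no test and no error rate, both lines lay at least 4-fold on the same side of the tumour, with 0.5 CPM added to each level and at least 10 CPM in the higher sample or samples. In the test, edgeR's quasi-likelihood model was fitted to all 6 libraries in 4 groups, and a gene was called where its Benjamini-Hochberg adjusted p was under 0.05. The tumour is 1 library, so the test takes it to vary as the lines and the papillomas do. The words rose and fell are kept for genes that passed this test. Every such call rests on the papillomas as well as on the lines. With only the 3 libraries of this comparison edgeR called 0 genes, with 216 higher and 1518 lower at an unadjusted p under 0.05, and without papilloma 1 or without papilloma 2 it also called 0, with 214 and 185 higher and 1603 and 1821 lower at that level. These fits leave 1 residual degree of freedom in place of 2, with the spread taken from the 2 lines alone. A fit without 1 of the lines also leaves 1, with the spread taken from the papillomas. DESeq2's Wald test on all 6 libraries called 742 genes higher and 2268 lower, among them each of edgeR's calls.

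Far more genes passed the thresholds under the tumour in both lines than above it. Without a threshold the sides were nearer to even: both lines lay below the tumour in 6905 tested genes (42.0%), above it in 5450 (33.2%) and on opposite sides of it in 4070 (24.8%). Of the 16425 genes tested, edgeR called 734 lower in culture, which is 4.47%, and 28 higher, which is 0.170%. At an unadjusted p under 0.05 the counts were 2992 lower and 1171 higher. Under the rule of size, 867 of 9717 genes at 10 CPM or more in the tumour lay at least 4-fold lower in both lines (8.92%), and 100 of 8347 genes at 10 CPM or more in both lines lay at least 4-fold higher (1.20%). The genes that met both criteria numbered 442 lower and 27 higher. The 867 genes took 0.969% of the counts in mSCC-20 and 1.08% in mSCC-38, against 15.1% in the tumour. In 781 of them (90.1%) both lines lay under each of the 4 biopsies, not only the tumour. In 91 of the 100 higher genes both lines lay above each of the 4. Both sets were chosen by their distance from the tumour, so these shares are partly built in. No share over all genes stands beside them. The other side of the comparison is what was kept: 4589 of 7924 genes at 10 CPM or more in all 3 libraries (57.9%) lay within 2-fold of the tumour in both lines. The median log2 ratio over the tested genes was -0.13 in mSCC-20 and -0.07 in mSCC-38. Near the thresholds, Col4a5 was just inside the higher set with 10.7 CPM in mSCC-20 and 13.7 CPM in mSCC-38, against 2.302 CPM in the tumour, and Esco2 just outside it with 67.9 CPM in mSCC-20 and 41.7 CPM in mSCC-38, against 10.1 CPM in the tumour. Gm14005 was just inside the lower set with 6.75 CPM in mSCC-20 and 5.13 CPM in mSCC-38, against 28.5 CPM in the tumour, and Pink1 just outside it with 7.24 CPM in mSCC-20 and 19.3 CPM in mSCC-38, against 78.8 CPM in the tumour.

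**Figure D1:**
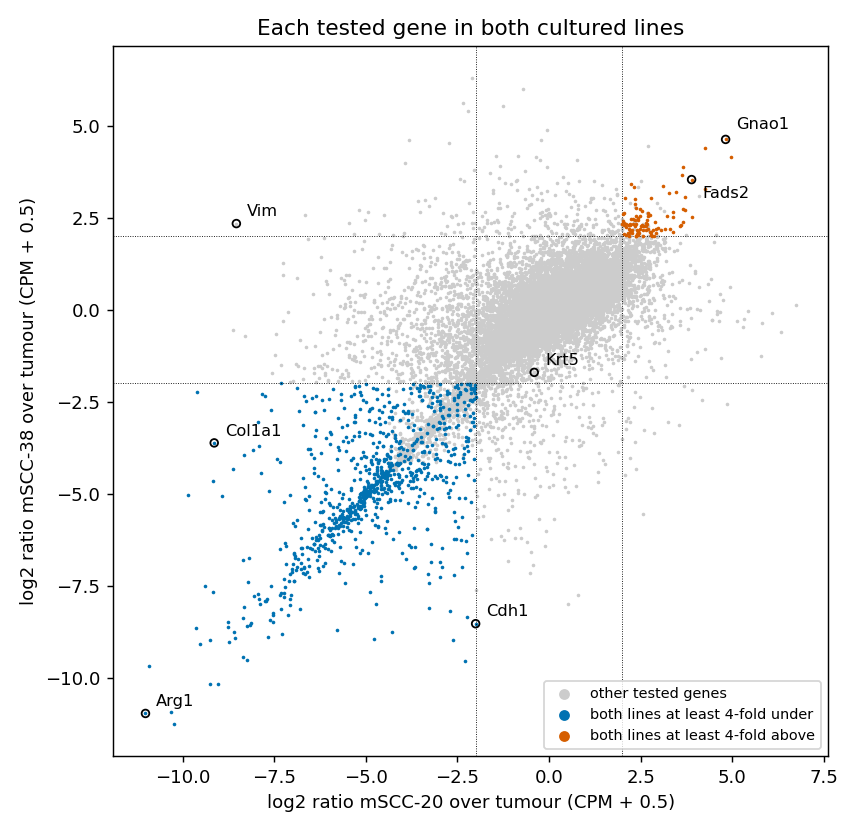
Each tested gene by its log2 ratio over the tumour in mSCC-20 (x axis) and in mSCC-38 (y axis), in CPM with 0.5 added; dotted lines mark 4-fold. The 867 genes lower in both lines (blue) reach down to Arg1 near the corner, the 100 higher genes (orange) up to Gnao1, while Vim and Cdh1 show genes in which the lines part.

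Both lines expressed the keratins and the master factor of basal keratinocytes at high levels, all under that of the tumour. Krt5, a keratin of the basal layer, had 9195 CPM in mSCC-20 and 3745 CPM in mSCC-38, against 12171 CPM in the tumour. Its partner Krt14 had 6606 CPM in mSCC-20 and 3054 CPM in mSCC-38, against 13601 CPM in the tumour. Trp63, the p63 factor that maintains the basal state, had 245 CPM in mSCC-20 and 364 CPM in mSCC-38, against 533 CPM in the tumour. None of these passed the test (adjusted p = 0.489 for Krt5, 0.297 for Krt14 and 0.281 for Trp63). Itgb4, the hemidesmosome integrin, had 213 CPM in mSCC-20 and 2025 CPM in mSCC-38, against 1301 CPM in the tumour, so that the lines lay on opposite sides of the tumour. Of the 14 basal genes, 1 fell and 0 rose, against 4.47% and 0.170% of all genes. The one that fell was Lama3, a chain of the basement membrane protein laminin-332, with 191 CPM in mSCC-20 and 216 CPM in mSCC-38, against 1081 CPM in the tumour (log2 fold change -2.41, SE 0.34, adjusted p = 0.0491). Lamb3, another of its chains, lay lower in both lines without passing the test, with 252 CPM in mSCC-20 and 159.9 CPM in mSCC-38, against 529.9 CPM in the tumour. All 14 had at least 10 CPM in all 3 libraries, and 5 lay within 2-fold of the tumour in both lines, a smaller share than the 57.9% of all such genes. These 5, named here after their values were seen, were Itga6, Itga3, Itgb1, Col17a1 and Bnc1. The first 3 are integrins that bind the basement membrane, Col17a1 is a hemidesmosome collagen, and Bnc1 is a basal zinc finger factor. The list's median log2 ratio was -0.94 in mSCC-20 and -0.63 in mSCC-38. The labelled cell type, skin tumour cells, thus shows its basal markers in both lines.

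Fibroblast and collagen genes were nearly absent from mSCC-20 and low in mSCC-38. Col1a1, a chain of type I collagen, had 2.18 CPM in mSCC-20 and 123 CPM in mSCC-38, against 1509 CPM in the tumour. Col3a1, the type III collagen of young matrix, had 1.49 CPM in mSCC-20 and 28.9 CPM in mSCC-38, against 978 CPM in the tumour. Both lines lay far under the tumour, and mSCC-38 lay above mSCC-20 in each. Col1a2, the other type I chain (chr6:4455697-4491543 in mm9), had 2.18 CPM in mSCC-20 and 2.78 CPM in mSCC-38, against 1649 CPM in the tumour, which is 758-fold lower in mSCC-20 and 594-fold lower in mSCC-38 (log2 fold change -9.38, SE 0.48, adjusted p = 0.0217). Dcn, the collagen-binding proteoglycan decorin, had 0.552 CPM in mSCC-20 and 3.14 CPM in mSCC-38, against 83.4 CPM in the tumour. Pdgfra, the growth factor receptor that marks fibroblasts, had 5.49 CPM in mSCC-20 and 33.4 CPM in mSCC-38, against 72.1 CPM in the tumour. Of the 20 genes, 8 fell and 0 rose, against 4.47% and 0.170% of all genes. Of the 18 at 10 CPM or more in the tumour, 14 lay at least 4-fold under it in both lines, against 8.92%. The summed level of the list was 33.9 CPM in mSCC-20, 761 CPM in mSCC-38 and 7483 CPM in the tumour. The exceptions belong to mSCC-38. Fbn1, the microfibril protein fibrillin 1, had 0.195 CPM in mSCC-20 and 189 CPM in mSCC-38, against 275 CPM in the tumour. Fbln1, a matrix protein, had 13.8 CPM in mSCC-20 and 175 CPM in mSCC-38, against 78.6 CPM in the tumour. Thy1 and Lum, also on the fibroblast list, were at 0.0649 and 0.1299 CPM in mSCC-20 and 0.0603 and 0.181 CPM in mSCC-38, against 72.7 and 28.2 CPM in the tumour. Genes of the list thus differed within mSCC-38, where Pdgfra had 33.4 CPM, and the source of these transcripts was not tested. Fbn1, Fbln1, Thy1 and Lum were picked with their values in view.

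Vessel genes lay under the tumour in both lines in 13 of 15 endothelial genes and 11 of 12 pericyte and smooth muscle genes, against 42.0% of all tested genes. Pecam1, an adhesion protein of endothelium, had 1.46 CPM in mSCC-20 and 3.53 CPM in mSCC-38, against 73.1 CPM in the tumour. Tie1, an endothelial receptor kinase, had 1.92 CPM in mSCC-20 and 1.99 CPM in mSCC-38, against 17.8 CPM in the tumour. Cdh5, the cadherin of endothelial junctions, had 0.1299 CPM in mSCC-20 and 0.151 CPM in mSCC-38, against 53.4 CPM in the tumour (411-fold and 354-fold lower in mSCC-20 and mSCC-38, adjusted p = 0.0217). Kdr, the main receptor of VEGF, had 0.0974 CPM in mSCC-20 and 0.0302 CPM in mSCC-38, against 28.2 CPM in the tumour. These 4 were among the 10 of 15 endothelial genes that fell, against 4.47% of all genes, with 0 higher. Egfl7, a secreted vessel factor, had 24.1 CPM in mSCC-20 and 9.99 CPM in mSCC-38, against 16.5 CPM in the tumour. Flt1, another VEGF receptor, had 2.18 CPM in mSCC-20 and 40.01 CPM in mSCC-38, against 27.4 CPM in the tumour, so neither lay under the tumour in both lines. Among 12 pericyte and smooth muscle genes 6 fell, against the same 4.47%. Rgs5, a pericyte signalling regulator, had 0.0974 CPM in mSCC-20 and 0 CPM in mSCC-38, against 22.9 CPM in the tumour. Myh11, the smooth muscle myosin, had 0.195 CPM in mSCC-20 and 0.0905 CPM in mSCC-38, against 9.35 CPM in the tumour. Pdgfrb, the receptor of pericytes, had 0.779 CPM in mSCC-20 and 21.1 CPM in mSCC-38, against 113 CPM in the tumour and did not pass the test (adjusted p = 0.308). Acta2, smooth muscle actin, differed between the lines, with 28.5 CPM in mSCC-20 and 473 CPM in mSCC-38, against 399.98 CPM in the tumour.

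Leukocyte genes were low in both lines, with few exceptions. Ptprc, which encodes the pan-leukocyte protein CD45, had 0.162 CPM in mSCC-20 and 0.0302 CPM in mSCC-38, against 67.5 CPM in the tumour. Laptm5, a lysosomal protein of blood cells, had 0.1299 CPM in mSCC-20 and 0.0302 CPM in mSCC-38, against 86.6 CPM in the tumour. Itgb2, the leukocyte integrin chain CD18, had 1.27 CPM in mSCC-20 and 0.634 CPM in mSCC-38, against 45.9 CPM in the tumour, and Sfpi1, the myeloid factor PU.1, had 0.0325 CPM in mSCC-20 and 0 CPM in mSCC-38, against 12.1 CPM in the tumour. All 4 fell, with 8 of the 13 pan-leukocyte genes and 0 higher, against 4.47% and 0.170% of all genes. Lcp1, an actin bundling protein also known from carcinoma cells, was the exception among them, with 1.82 CPM in mSCC-20 and 57.8 CPM in mSCC-38, against 106 CPM in the tumour. The macrophage list fell in 12 of 16 genes, against the same 4.47%. C1qa, a chain of complement C1q made by macrophages, had 0.0325 CPM in mSCC-20 and 0.0603 CPM in mSCC-38, against 101 CPM in the tumour (log2 fold change -10.97, SE 0.46, adjusted p = 0.0217). Emr1, which encodes the F4/80 protein, had 0.0649 CPM in mSCC-20 and 0 CPM in mSCC-38, against 18.2 CPM in the tumour. Csf1r, the receptor that macrophages need to survive, had 1.88 CPM in mSCC-20 and 0.392 CPM in mSCC-38, against 81.01 CPM in the tumour and missed the threshold (adjusted p = 0.0561). Cd68, a lysosomal protein that other cells also make, stayed closer to the tumour with 3.31 CPM in mSCC-20 and 12.9 CPM in mSCC-38, against 28.2 CPM in the tumour.

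Among granulocytes and lymphocytes many genes were low in the tumour too, and the calls did not follow that level alone. The counts of fallen genes given here stand beside 4.47% of all genes. Cxcr2, a chemokine receptor of neutrophils, had 0.455 CPM in mSCC-20 and 0.211 CPM in mSCC-38, against 25.6 CPM in the tumour. Csf3r, the receptor of granulocyte growth factor, had 0.0325 CPM in mSCC-20 and 0 CPM in mSCC-38, against 34.3 CPM in the tumour, and both fell, with 7 of the 11 neutrophil genes tested. The granule gene Ngp had 0.0325 CPM in mSCC-20 and 0 CPM in mSCC-38, against 0.7596 CPM in the tumour, too low in the tumour for a comparison. T and NK cell genes summed to 0.909 CPM in mSCC-20 and 2.23 CPM in mSCC-38 over 15 genes, against 56.2 CPM in the tumour, a low level there too. Cd3e, Cd3g and Cd8a, parts of the T cell receptor complex and its coreceptor, were at 0 counts in both lines, against 3.703, 3.51 and 8.14 CPM in the tumour, and Cd4 had 0.0325 CPM in mSCC-20 and 0 CPM in mSCC-38, against 3.16 CPM in the tumour. Of that list 3 fell: Cd3g among the 4 defining genes, and Gzmb and Cd247. Of the B and plasma cell list 1 of 6 tested genes fell, Igj, the joining chain of antibodies, with 0 counts in both lines and 12.5 CPM in the tumour. The defining B cell genes named here could not be compared, as Cd79a, Cd79b and Ms4a1 had 0.0475, 0.404 and 0.214 CPM in the tumour itself. Cd74, the invariant chain of MHC class II, had 1.46 CPM in mSCC-20 and 0.422 CPM in mSCC-38, against 635 CPM in the tumour. H2-Aa, a class II chain, had 0.3896 CPM in mSCC-20 and 0.181 CPM in mSCC-38, against 255 CPM in the tumour. H2-Ab1 had 0.422 CPM in mSCC-20 and 0.0302 CPM in mSCC-38, against 182 CPM in the tumour. H2-Eb1 had 0.227 CPM in mSCC-20 and 0.0302 CPM in mSCC-38, against 3.94 CPM in the tumour, whose reads may be shared with related class II genes. Of these 4 the first 3 fell, with 5 of 11 on the class II and dendritic cell list. Mast cell proteases were modest in the tumour, and 6 of 9 mast cell genes fell. They include Mcpt4, with 0 CPM in mSCC-20 and 0.0302 CPM in mSCC-38, against 4.201 CPM in the tumour, Cma1, with 0.1299 CPM in mSCC-20 and 0.181 CPM in mSCC-38, against 4.01 CPM in the tumour, and Tpsb2, with 0.0325 CPM in mSCC-20 and 0.0302 CPM in mSCC-38, against 5.55 CPM in the tumour, while Cpa3, a mast cell carboxypeptidase, had 0 CPM in mSCC-20 and 0.0603 CPM in mSCC-38, against 4.11 CPM in the tumour and did not pass (adjusted p = 0.05795).

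Genes of red cells, fat and muscle were low in culture too. Hbb-b1, a beta globin, had 0.162 CPM in mSCC-20 and 0 CPM in mSCC-38, against 82.3 CPM in the tumour, and Alas2, the haem synthesis enzyme of red cell precursors, had 0 counts in both lines and 16.3 CPM in the tumour, at least 168-fold lower in mSCC-20 and 180.4-fold lower in mSCC-38 by the floor of 3 counts per library. Adipoq, the fat cell hormone adiponectin, had 0.162 CPM in mSCC-20 and 0.0603 CPM in mSCC-38, against 8.17 CPM in the tumour. Cfd, adipsin, had 0.0649 CPM in mSCC-20 and 0 CPM in mSCC-38, against 34.9 CPM in the tumour. Ckm, muscle creatine kinase, had 0.357 CPM in mSCC-20 and 0.151 CPM in mSCC-38, against 38.6 CPM in the tumour. Myh4, a fast myosin, had 0.292 CPM in mSCC-20 and 0.332 CPM in mSCC-38, against 99.98 CPM in the tumour. Acta1, skeletal actin, had 2.66 CPM in mSCC-20 and 8.48 CPM in mSCC-38, against 297 CPM in the tumour. The test called 3 of 4 tested erythrocyte genes, 3 of 8 adipocyte genes and 3 of 8 skeletal muscle genes lower, and 0 of each higher. Over all genes the shares were 4.47% lower and 0.170% higher. Of the Schwann cell genes 1 of 9 fell, Scn7a, too few to set apart from the 4.47% of all genes. Yet all 9 lay under the tumour in both lines, against 42.0% of all tested genes. At an unadjusted p under 0.05, 0 were higher and 7 lower, and DESeq2 called 0 higher and 6 lower. Sox10, a factor of that lineage, was low in the tumour, at 0.783 CPM. Melanocyte genes were low in each of the 3 libraries, with Dct at 0.227, 0.121 and 0.3798 CPM in mSCC-20, mSCC-38 and the tumour, and edgeR called 0 of 7 (0 higher and 0 lower at an unadjusted p under 0.05, and 0 and 0 by DESeq2). Mitf, which other cells make too, sets that list's sum above the tumour, with 24.5 CPM in mSCC-20 and 11.6 CPM in mSCC-38, against 8.05 CPM in the tumour. The hair list gave 0 calls of 17 (0 higher and 1 lower at an unadjusted p under 0.05, and 0 and 1 by DESeq2), and its keratins stayed low throughout, with Krt71 at 2.27, 1.93 and 2.68 CPM in mSCC-20, mSCC-38 and the tumour. Over the 15 cell type lists together, 76 of 164 tested genes fell and 0 rose, against 4.47% and 0.170% of all genes. Of the 92 at 10 CPM or more in the tumour, 79 lay at least 4-fold lower in both lines, against 8.92%. Of the 169 genes 46 were at 0 counts in mSCC-20 and 57 in mSCC-38, against 1 in the tumour. Of the 867 lower genes, 79 stood on these 15 lists and 728 on none of the 40 lists, which are short and do not hold every gene of a cell type.

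**Figure D2:**
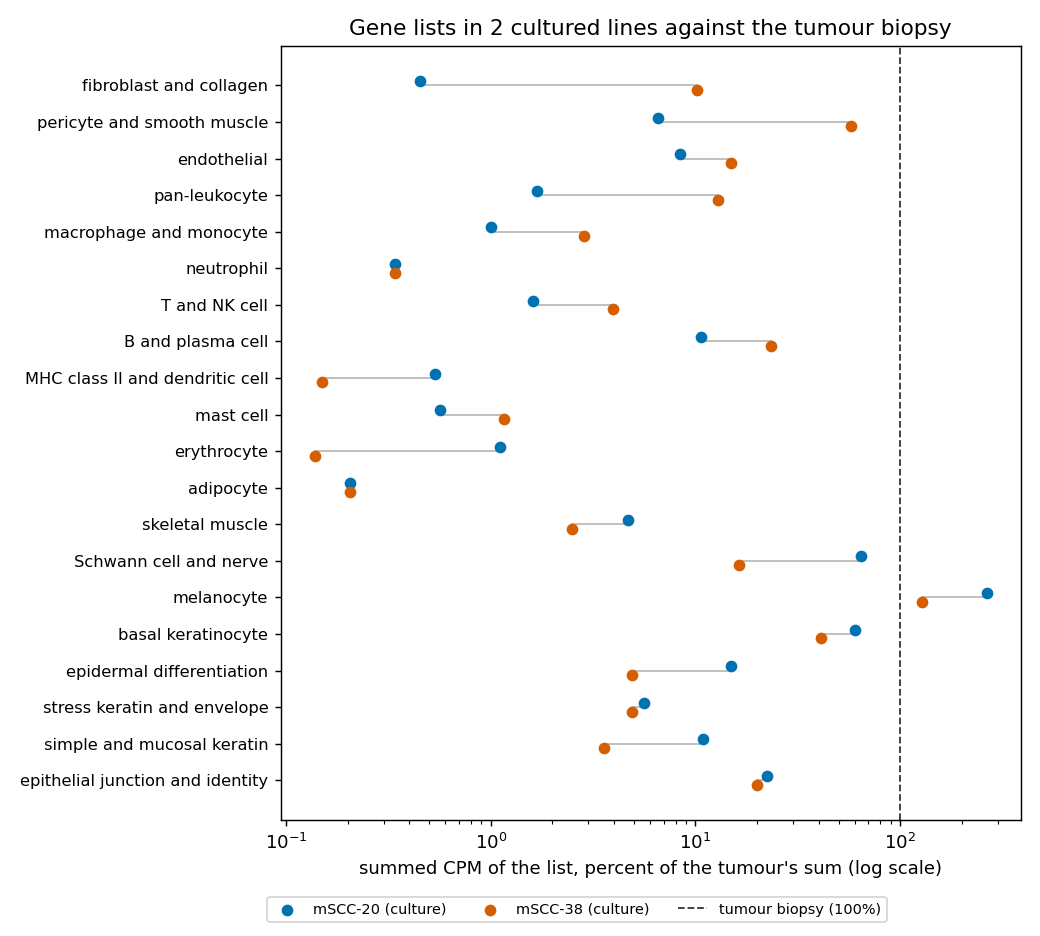
Summed CPM of each list in mSCC-20 (blue) and mSCC-38 (orange) as a percent of the tumour's sum, on a log axis; the dashed line is the tumour. Neutrophil, class II, mast cell, red cell and fat cell sums lie near or under 1 percent of the tumour, the basal keratinocyte sum lies at 60.3 percent in mSCC-20 and 40.9 percent in mSCC-38, and mSCC-38 kept more than mSCC-20 of the fibroblast and smooth muscle sums. The melanocyte sum is that of Mitf.

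The differentiation genes of the epidermis lay under the tumour in both lines in 19 of 19 genes, against 42.0% of all tested genes. Krt1, the keratin of the first suprabasal layer, had 5.13 CPM in mSCC-20 and 3.92 CPM in mSCC-38, against 96.8 CPM in the tumour (log2 fold change -4.42, SE 0.48, adjusted p = 0.0351). Its partner Krt10 had 10.1 CPM in mSCC-20 and 10.1 CPM in mSCC-38, against 94.6 CPM in the tumour and missed the threshold (adjusted p = 0.05104). Lor, the main protein of the cornified envelope, had 5.71 CPM in mSCC-20 and 2.23 CPM in mSCC-38, against 76.7 CPM in the tumour. Ivl, an early envelope protein, had 62.3 CPM in mSCC-20 and 10.1 CPM in mSCC-38, against 156 CPM in the tumour. Of the 19 genes tested, 10 fell and 0 rose, against 4.47% and 0.170% of all genes. Of the 14 at 10 CPM or more in the tumour, 12 lay at least 4-fold lower in both lines, against 8.92%. Among those that fell were Dsg1a and Dsc1, cadherins of upper desmosomes, and Klk7, a protease that loosens the surface. Dsg1a had 0.812 CPM in mSCC-20 and 0.543 CPM in mSCC-38, against 27.7 CPM in the tumour. Klk7 had 3.12 CPM in mSCC-20 and 1.96 CPM in mSCC-38, against 93.3 CPM in the tumour. The lines differed in Tgm1, the enzyme that crosslinks the envelope, with 42.8 CPM in mSCC-20 and 0.483 CPM in mSCC-38, against 284 CPM in the tumour. The median log2 ratio of the list was -3.64 in mSCC-20 and -3.99 in mSCC-38. The tumour was itself low in these genes beside the other biopsies: the list summed to 195 CPM in mSCC-20 and 63.4 CPM in mSCC-38, against 1299 CPM in the tumour, 41809.6 and 33464 CPM in papillomas 1 and 2 and 12719 CPM in skin.

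The keratins of wounded and hyperplastic epidermis, abundant in the tumour, were lower in culture as well. Krt6a had 792 CPM in mSCC-20 and 578 CPM in mSCC-38, against 11470.4 CPM in the tumour. Krt6b had 18.6 CPM in mSCC-20 and 14.8 CPM in mSCC-38, against 5839 CPM in the tumour; these genes are near copies, and reads may be shared between them. Krt6b fell by 8.45 on the log2 scale (SE 0.69, adjusted p = 0.0257), while Krt6a did not pass (adjusted p = 0.0547). Krt16, their partner, had 189 CPM in mSCC-20 and 30.4 CPM in mSCC-38, against 1927 CPM in the tumour. Krt17 had 134 CPM in mSCC-20 and 707 CPM in mSCC-38, against 1952 CPM in the tumour, the nearest to the tumour of the 4 in mSCC-38. Against 4.47% and 0.170% of all genes, 6 of the 14 genes tested fell and 0 rose. They include S100a8 and S100a9, which neutrophils make too and which also count on that list, with 1.27 CPM in mSCC-20 and 2.504 CPM in mSCC-38, against 257 CPM in the tumour for S100a8 and 2.08 CPM in mSCC-20 and 0.573 CPM in mSCC-38, against 778 CPM in the tumour for S100a9. The share of neutrophils in their tumour level was not tested. Sprr1a and Sprr3, small proline-rich envelope proteins, had 55.03 CPM in mSCC-20 and 6.94 CPM in mSCC-38, against 3092 CPM in the tumour and 1.104 CPM in mSCC-20 and 0.241 CPM in mSCC-38, against 849 CPM in the tumour, and did not pass.

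Keratins of inner linings went in both directions. Krt13 and Krt4, a pair typical of mouth and oesophagus, fell: Krt13 (chr11:99978910-99982809 in mm9) had 1.92 CPM in mSCC-20 and 5.22 CPM in mSCC-38, against 4636 CPM in the tumour. Krt4 had 0.325 CPM in mSCC-20 and 0.241 CPM in mSCC-38, against 317 CPM in the tumour. In papillomas 1 and 2 Krt13 had 1063 and 235 CPM, and in skin 2.19 CPM. Krt8 and Krt18, the pair of simple epithelia, did not fall: Krt8 had 198 CPM in mSCC-20 and 30.8 CPM in mSCC-38, against 34.6 CPM in the tumour. Krt18 had 305 CPM in mSCC-20 and 168 CPM in mSCC-38, against 92.9 CPM in the tumour, with mSCC-20 above the tumour in both. Krt7 and Krt19 lay at least 4-fold under the tumour in both lines, with 1.56 CPM in mSCC-20 and 0.211 CPM in mSCC-38, against 320.1 CPM in the tumour for Krt7 and 70.8 CPM in mSCC-20 and 2.41 CPM in mSCC-38, against 372 CPM in the tumour for Krt19. Neither was called.

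Junction genes lay under the tumour in both lines in 19 of 21 genes, against 42.0% of all tested genes, though the test called 1. At an unadjusted p under 0.05, 0 of the 21 were higher and 7 lower, and DESeq2 called 0 higher and 8 lower. The list's median was lower in mSCC-38 than in mSCC-20. Cdh1, E-cadherin, had 195 CPM in mSCC-20 and 1.63 CPM in mSCC-38, against 784 CPM in the tumour. Esrp1, a splicing factor of epithelial cells, had 60.8 CPM in mSCC-20 and 0.392 CPM in mSCC-38, against 289 CPM in the tumour. Epcam, an epithelial adhesion protein, had 196 CPM in mSCC-20 and 3.26 CPM in mSCC-38, against 429 CPM in the tumour. In mSCC-38 these levels were 0.208%, 0.136% and 0.7599% of the tumour's. Dsp, the desmosome anchor desmoplakin, was low to a like degree in both, with 988 CPM in mSCC-20 and 1139 CPM in mSCC-38, against 5334 CPM in the tumour. Cldn1, the claudin of the epidermal barrier, fell in both lines, with 2.11 CPM in mSCC-20 and 0.996 CPM in mSCC-38, against 349 CPM in the tumour (log2 fold change -7.81, SE 0.67, adjusted p = 0.0263), and was the only called gene of the 21, a share near the 4.47% of all genes. Its tight junction scaffold Tjp1 lay within 2-fold of the tumour, with 419 CPM in mSCC-20 and 262 CPM in mSCC-38, against 431 CPM in the tumour. Median log2 ratios of the list were -1.70 in mSCC-20 and -5.44 in mSCC-38, and 7 of 21 genes lay at least 4-fold lower in both, against 8.92% of all genes.

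Mesenchymal genes did not move together in culture. The lines lay on opposite sides of the tumour in 10 of 12 genes, against 24.8% of all tested genes, and edgeR called 0 of 12 (0 higher and 1 lower at an unadjusted p under 0.05, and 0 and 1 by DESeq2). Vim, the intermediate filament of mesenchymal cells, had 1.62 CPM in mSCC-20 and 3989.5 CPM in mSCC-38, against 787 CPM in the tumour. Cdh2, N-cadherin, had 0.0325 CPM in mSCC-20 and 20.8 CPM in mSCC-38, against 1.14 CPM in the tumour. Zeb1, a repressor of E-cadherin, had 1.98 CPM in mSCC-20 and 65.7 CPM in mSCC-38, against 19.4 CPM in the tumour. Snai2, a relative of Snail, was lower in both lines, with 80.9 CPM in mSCC-20 and 70.9 CPM in mSCC-38, against 215 CPM in the tumour. The tumour level of Vim, Cdh2 and Zeb1 lies between the lines, while that of Snai2 lies above both. Stromal cells can express such genes too, and the stroma's share in the tumour's levels was not tested. Among integrins the lines lay on opposite sides in 5 of 9 genes. Itga2, a collagen receptor, had 1.299 CPM in mSCC-20 and 83.8 CPM in mSCC-38, against 77.7 CPM in the tumour. Itgav had 154 CPM in mSCC-20 and 299 CPM in mSCC-38, against 268 CPM in the tumour. Itga5, the fibronectin receptor chain, had 33.2 CPM in mSCC-20 and 135 CPM in mSCC-38, against 108 CPM in the tumour, and Itgb6, which activates TGF-beta, lay under the tumour in both, with 5.91 CPM in mSCC-20 and 0.875 CPM in mSCC-38, against 42.7 CPM in the tumour. The called gene was Itga9, with 0.0325 CPM in mSCC-20 and 0.0302 CPM in mSCC-38, against 19.8 CPM in the tumour.

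**Figure D3:**
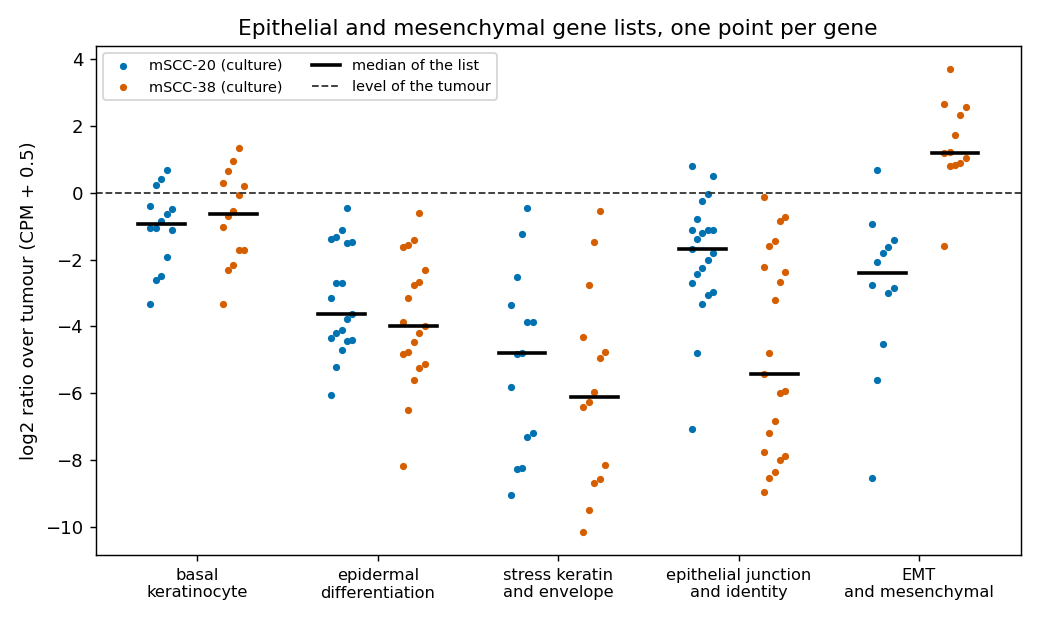
log2 ratio over the tumour (CPM with 0.5 added) of each tested gene of 5 lists, in mSCC-20 (blue) and mSCC-38 (orange); black bars are list medians and the dashed line the tumour. By their medians, basal genes lie nearest the tumour of the 5 lists, and differentiation and stress genes lie under it in both lines. Junction genes lie further under it in mSCC-38 than in mSCC-20. Mesenchymal genes lie under the tumour in mSCC-20 and above it in mSCC-38.

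Among 13 factors that direct epidermal fate, 4 of the 12 at 10 CPM or more in the tumour lay at least 4-fold under it in both lines, against 8.92% of all genes. Of the 8 at 10 CPM or more in all 3 libraries 2 lay within 2-fold of it, against 57.9%, and 1 of the 13 fell, a share near the background of 4.47%. At an unadjusted p under 0.05, 0 of the 13 were higher and 6 lower, and DESeq2 called 0 higher and 5 lower. Klf4, a barrier factor, had 69.5 CPM in mSCC-20 and 23.7 CPM in mSCC-38, against 175 CPM in the tumour. Klf5, a factor of dividing epithelial cells, had 54.1 CPM in mSCC-20 and 52.1 CPM in mSCC-38, against 110.4 CPM in the tumour. Sox9, a factor of hair follicle stem cells and of carcinoma, had 66.98 CPM in mSCC-20 and 88.3 CPM in mSCC-38, against 289 CPM in the tumour. Gata3 had 14.1 CPM in mSCC-20 and 17.2 CPM in mSCC-38, against 14.5 CPM in the tumour. Gata3 and Tfap2a lay within 2-fold of the tumour in both lines. Grhl3, Ovol1 and Zfp750, which act late, lay at least 4-fold lower in both, for instance Zfp750 with 31.5 CPM in mSCC-20 and 1.48 CPM in mSCC-38, against 153 CPM in the tumour. The 1 gene of 13 that fell was Sox2, with 0.0325 CPM in mSCC-20 and 0.0302 CPM in mSCC-38, against 17.1 CPM in the tumour. Apart from the first 4, these were picked with their values in view.

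The 12 genes furthest under the tumour in both lines, among those that passed both criteria, were of several kinds. Arg1 (chr10:24635013-24647276 in mm9), the enzyme that splits arginine and which macrophages can make too, had 2.34 CPM in mSCC-20 and 2.44 CPM in mSCC-38, against 5876 CPM in the tumour, which is 2514-fold lower in mSCC-20 and 2404-fold lower in mSCC-38 (log2 fold change -11.26, SE 0.62, adjusted p = 0.0217). Papillomas 1 and 2 had 953 and 566 CPM of Arg1, and skin 54.4 CPM. Psca, a surface protein first described in prostate (chr15:74545269-74547495 in mm9), had 1.104 CPM in mSCC-20 and 0.543 CPM in mSCC-38, against 2037 CPM in the tumour. Ltf, the iron-binding protein lactoferrin, which neutrophils also carry, had 1.17 CPM in mSCC-20 and 0.332 CPM in mSCC-38, against 2023 CPM in the tumour. Calml3, a calmodulin-like protein of keratinocytes, had 1.53 CPM in mSCC-20 and 0.573 CPM in mSCC-38, against 1239.6 CPM in the tumour. Aldh1a3, which makes retinoic acid, had 0.519 CPM in mSCC-20 and 1.54 CPM in mSCC-38, against 810.4 CPM in the tumour. Mal2, a protein of transcytosis in polarised epithelium, had 0.325 CPM in mSCC-20 and 0.422 CPM in mSCC-38, against 361 CPM in the tumour. Ceacam1, a cell adhesion molecule, had 0.3896 CPM in mSCC-20 and 0.211 CPM in mSCC-38, against 340.1 CPM in the tumour. Fabp4, a fatty acid carrier of fat cells, macrophages and capillaries, had 1.23 CPM in mSCC-20 and 0.935 CPM in mSCC-38, against 746 CPM in the tumour. Beta-s, a beta globin model, had 0.0649 CPM in mSCC-20 and 0.272 CPM in mSCC-38, against 419 CPM in the tumour and may share reads with Hbb-b1. Krt13, Krt4 and Col1a2, given above, complete the set. In each of the 12 both lines were at or under 0.1899 percent of the tumour. That share is of the same order as that of the hair genes, which was taken against skin. The folds are therefore not exact, and larger differences could read alike.

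Many genes of antigen presentation and of innate defence were also lower in culture. The counts below stand beside 4.47% of all genes called lower and 0.170% called higher. By the rule of size, 8.92% of genes at 10 CPM or more in the tumour were lower. B2m, the light chain of MHC class I, had 331 CPM in mSCC-20 and 353 CPM in mSCC-38, against 1602 CPM in the tumour and lay just beyond the threshold (adjusted p = 0.0515). Tap1, the peptide transporter, had 9.93 CPM in mSCC-20 and 14.96 CPM in mSCC-38, against 134 CPM in the tumour. Nlrc5, the activator of class I genes, had 0.877 CPM in mSCC-20 and 0.815 CPM in mSCC-38, against 76.7 CPM in the tumour. Psmb8, an immunoproteasome subunit, had 0.584 CPM in mSCC-20 and 30.2 CPM in mSCC-38, against 92.00 CPM in the tumour. Of 9 class I genes 3 fell, namely Tap1 (adjusted p = 0.0327), Nlrc5 (adjusted p = 0.0217) and H2-D1, a heavy chain with close relatives (adjusted p = 0.0456), and 5 of 9 lay at least 4-fold lower in both lines. Irf7, which amplifies the interferon response, had 0.487 CPM in mSCC-20 and 9.78 CPM in mSCC-38, against 169.8 CPM in the tumour. Isg15 had 1.01 CPM in mSCC-20 and 2.78 CPM in mSCC-38, against 7.29 CPM in the tumour. Ifit1 had 0.227 CPM in mSCC-20 and 3.65 CPM in mSCC-38, against 5.03 CPM in the tumour. Of the interferon list 2 of 14 genes fell, Oas1a among them, and 0 rose. Among 8 complement genes 4 fell: C4b, with 0.195 CPM in mSCC-20 and 0.0603 CPM in mSCC-38, against 17.2 CPM in the tumour, and Cfb, Serping1 and C2. C3, the central component, went the other way in mSCC-20, with 342 CPM in mSCC-20 and 65.7 CPM in mSCC-38, against 72.04 CPM in the tumour. C1s had 2.89 CPM in mSCC-20 and 26.7 CPM in mSCC-38, against 34.6 CPM in the tumour. Leukocytes and fibroblasts express many of these genes too, and the summed macrophage list was 10.2 CPM in mSCC-20 and 29.1 CPM in mSCC-38, against 1017 CPM in the tumour. Their part in the tumour's levels was not tested.

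Cytokines and matrix proteases gave no call. Of 16 cytokine genes edgeR called 0 (2 higher and 3 lower at an unadjusted p under 0.05, and 2 and 2 by DESeq2), and of 13 protease and inhibitor genes 0 (0 higher and 3 lower at an unadjusted p under 0.05, and 0 and 3 by DESeq2). Il1b, an inflammatory cytokine of activated myeloid cells, had 1.07 CPM in mSCC-20 and 0.151 CPM in mSCC-38, against 75.6 CPM in the tumour. Cxcl2, which draws neutrophils, had 12.7 CPM in mSCC-20 and 6.43 CPM in mSCC-38, against 56.7 CPM in the tumour. Both genes lay at least 4-fold under the tumour in each line. Il6 had 0.1299 CPM in mSCC-20 and 3.47 CPM in mSCC-38, against 2.68 CPM in the tumour. Tnf had 58.9 CPM in mSCC-20 and 0.302 CPM in mSCC-38, against 7.71 CPM in the tumour. Lif, a cytokine of the interleukin 6 family, lay at least 4-fold above the tumour in both, with 219 CPM in mSCC-20 and 84.7 CPM in mSCC-38, against 14.3 CPM in the tumour (adjusted p = 0.114). Mmp13 and Mmp9, a collagenase and a gelatinase, lay far under the tumour: Mmp13 had 0.747 CPM in mSCC-20 and 34.4 CPM in mSCC-38, against 1145 CPM in the tumour. Mmp9 had 14.6 CPM in mSCC-20 and 7.87 CPM in mSCC-38, against 127 CPM in the tumour. Mmp3, stromelysin, had 0.0649 CPM in mSCC-20 and 9.08 CPM in mSCC-38, against 36.4 CPM in the tumour. Plau, the urokinase, had 807 CPM in mSCC-20 and 139 CPM in mSCC-38, against 209 CPM in the tumour.

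Genes of DNA replication and mitosis were above the tumour in both lines, in 20 of 20 genes, against 33.2% of all tested genes, and in these 20 both lines also lay above each of the 4 biopsies. Mki67, the proliferation antigen, had 686 CPM in mSCC-20 and 566 CPM in mSCC-38, against 267 CPM in the tumour. Top2a, the topoisomerase that untangles chromosomes, had 989 CPM in mSCC-20 and 1359.8 CPM in mSCC-38, against 349 CPM in the tumour. Ccnb1, the mitotic cyclin, had 61.4 CPM in mSCC-20 and 49.6 CPM in mSCC-38, against 19.1 CPM in the tumour. Mcm2, part of the replicative helicase, had 415 CPM in mSCC-20 and 331 CPM in mSCC-38, against 78.99 CPM in the tumour. Over the list the ratio to the tumour, with 0.5 CPM added, ran from 1.61 to 5.62 in mSCC-20 and from 1.41 to 5.81 in mSCC-38, and the median log2 ratio was 2.10 and 1.60 in these lines. One gene rose, Aurkb, a kinase of chromosome segregation, with 117 CPM in mSCC-20 and 121 CPM in mSCC-38, against 20.5 CPM in the tumour (log2 fold change 2.55, SE 0.32, adjusted p = 0.0433), against 0.170% of all genes. At an unadjusted p under 0.05, 18 of the 20 were higher and 0 lower, and DESeq2 called 18 higher and 0 lower. Over all genes the higher counts were 1171 at that level and 742 by DESeq2. Mcm2, Aurkb and Birc5, the survivin gene, passed the rule of size, 3 of 20 against 1.20%. Birc5 had 181 CPM in mSCC-20 and 148 CPM in mSCC-38, against 33.02 CPM in the tumour (adjusted p = 0.0546). A tumour library also holds stroma and leukocytes, and how far such cells lower its share of proliferation transcripts was not tested.

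**Figure D4:**
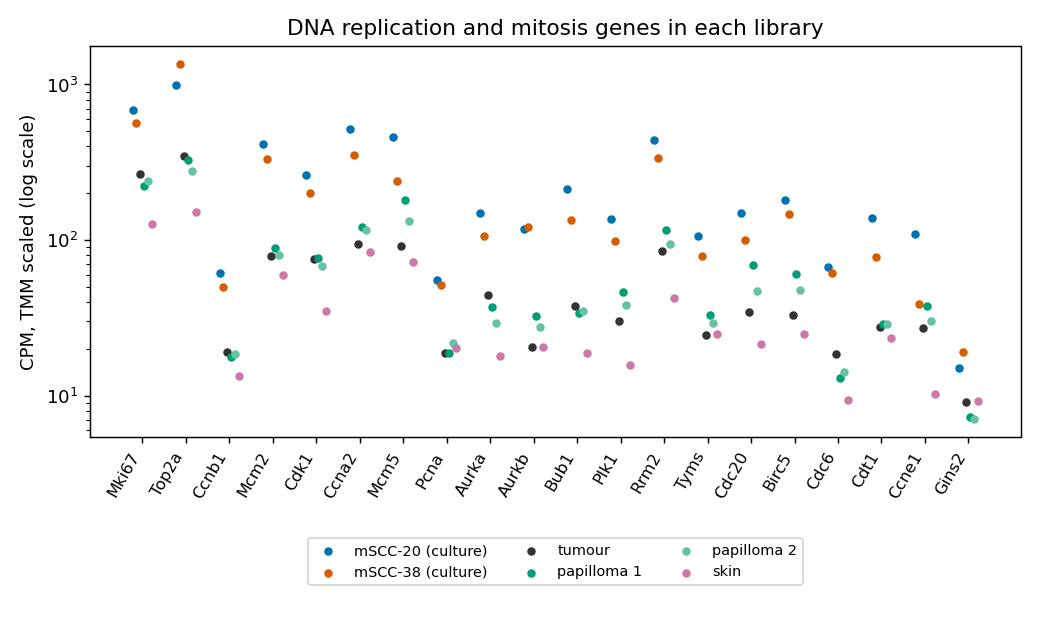
CPM on a log axis of 20 DNA replication and mitosis genes in each library, cultures first, then tumour, papillomas and skin. Both cultures lie above the tumour, the papillomas and skin in each of the 20 genes.

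Of the 28 genes that rose, 13 encode proteins of cell division or DNA copying and repair, a grouping made after the values were seen: Aurkb, Cenpf, Foxm1, Anln, Brca1, Diap3, Espl1, Fignl1, Kif18b, Kif20a, Kntc1, Mad2l1 and Pold2. Such genes were not counted among all tested genes, so 13 of 28 has no background share beside it. Foxm1 (chr6:128313012-128325904 in mm9), the factor that drives transcription of mitotic genes, had 219 CPM in mSCC-20 and 199 CPM in mSCC-38, against 33.5 CPM in the tumour (log2 fold change 2.64, SE 0.30, adjusted p = 0.0375). In papillomas 1 and 2 it had 39.99 and 38.2 CPM, and in skin 30.4 CPM. Cenpf, a kinetochore protein (chr1:191464493-191511965 in mm9), had 185 CPM in mSCC-20 and 206 CPM in mSCC-38, against 31.5 CPM in the tumour (log2 fold change 2.64, SE 0.31, adjusted p = 0.0401). Papillomas 1 and 2 had 44.9 and 50.9 CPM of Cenpf, and skin 39.6 CPM. Anln, an actin-binding protein of the cleavage furrow, had 423 CPM in mSCC-20 and 497 CPM in mSCC-38, against 90.1 CPM in the tumour, with 117 and 109 CPM in papillomas 1 and 2 and 47.3 CPM in skin, so the biopsies differed among themselves.

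Promoters are shown of Cenpf, which rose but is not on the replication and mitosis list, and of Mcm2, which is on it. Many cell cycle genes are known to carry CHR, CCAAT or E2F elements near the start site. The sequences are from RefSeq on GRCm38.p6, 250 bases before to 50 after the start, 5′ to 3′ on the gene's strand, with capitals at CHR (TTTGAA) and CCAAT letters, searched on both strands together with the E2F letters TTTCCCGC and TTTGGCGC. Cenpf lies at chr1:189688037-189688336 on the minus strand and Mcm2 at chr6:88898731-88899030 on the minus strand.
Cenpf: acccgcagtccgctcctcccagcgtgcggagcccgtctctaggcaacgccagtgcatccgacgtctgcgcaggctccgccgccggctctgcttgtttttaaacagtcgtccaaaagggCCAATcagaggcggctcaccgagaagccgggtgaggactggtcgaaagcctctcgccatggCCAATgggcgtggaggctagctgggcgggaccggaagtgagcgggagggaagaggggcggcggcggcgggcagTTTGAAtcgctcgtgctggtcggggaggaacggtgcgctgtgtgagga
Mcm2: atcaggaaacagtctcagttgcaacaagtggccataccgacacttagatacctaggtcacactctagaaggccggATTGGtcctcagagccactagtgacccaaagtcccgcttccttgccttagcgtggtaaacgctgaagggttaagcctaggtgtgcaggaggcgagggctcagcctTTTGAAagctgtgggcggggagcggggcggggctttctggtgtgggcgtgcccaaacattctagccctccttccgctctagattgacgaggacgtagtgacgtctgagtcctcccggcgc
The Cenpf window holds CHR once and CCAAT at 2 places, and the Mcm2 window holds CHR once and CCAAT once on the opposite strand. The window of Birc5, also read, holds none of these letters and is not printed. Of the 17 list genes with a promoter in this table, 7 hold TTTGAA, 12 hold CCAAT and 3 hold either E2F sequence in at least 1 window. Of all 32851 windows of the same length, 17.9% hold TTTGAA, 37.4% hold CCAAT and 1.56% hold either E2F sequence. Genes may have more than 1 window, and a match is a description of letters, not a binding site.

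Foxm1, Cenpf and Aurkb are among the 12 genes furthest above the tumour, and the other 9 had other roles. Gnao1 (chr8:96334738-96493288 in mm9), a G protein subunit known from neurons, had 33.1 CPM in mSCC-20 and 28.8 CPM in mSCC-38, against 0.688 CPM in the tumour, which is 48.02-fold higher in mSCC-20 (95% Clopper-Pearson interval 33.2 to 72.1) and 41.9-fold higher in mSCC-38 (28.99 to 62.9), with a log2 fold change of 5.49 (SE 0.71, adjusted p = 0.0445). The papillomas had 3.66 and 6.29 CPM and skin 6.82 CPM of Gnao1, so the tumour was the lowest biopsy. Grb14, an adaptor that restrains insulin receptor signalling, had 27.1 CPM in mSCC-20 and 30.02 CPM in mSCC-38, against 0.949 CPM in the tumour. Sncg, gamma-synuclein, had 116 CPM in mSCC-20 and 66.5 CPM in mSCC-38, against 3.25 CPM in the tumour (log2 fold change 4.81, SE 0.62, adjusted p = 0.0445). Tulp3, which carries receptors into the primary cilium, had 100.3 CPM in mSCC-20 and 103 CPM in mSCC-38, against 7.64 CPM in the tumour. Wasf1, a regulator of branched actin, had 30.6 CPM in mSCC-20 and 25.5 CPM in mSCC-38, against 2.33 CPM in the tumour. Zdhhc2, a palmitoyl transferase, had 27.4 CPM in mSCC-20 and 32.9 CPM in mSCC-38, against 2.75 CPM in the tumour. Zfp365, a zinc finger protein, had 47.8 CPM in mSCC-20 and 56.7 CPM in mSCC-38, against 6.504 CPM in the tumour. Acot7, an enzyme that cleaves acyl-CoA, had 129 CPM in mSCC-20 and 155 CPM in mSCC-38, against 22.9 CPM in the tumour. Adjusted p over the 12 ran from 0.0375 to 0.0495, near the threshold, and Tulp3 and Zdhhc2 were no longer called with total-count scaling, nor Zdhhc2 with DESeq2's size factors. In each of the 12, both lines lay above each of the 4 biopsies, though the 12 were chosen by their distance above the tumour. Tulp3 and Foxm1 are neighbours on chromosome 6, on opposite strands with 7142 bases between them.

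**Figure D5:**
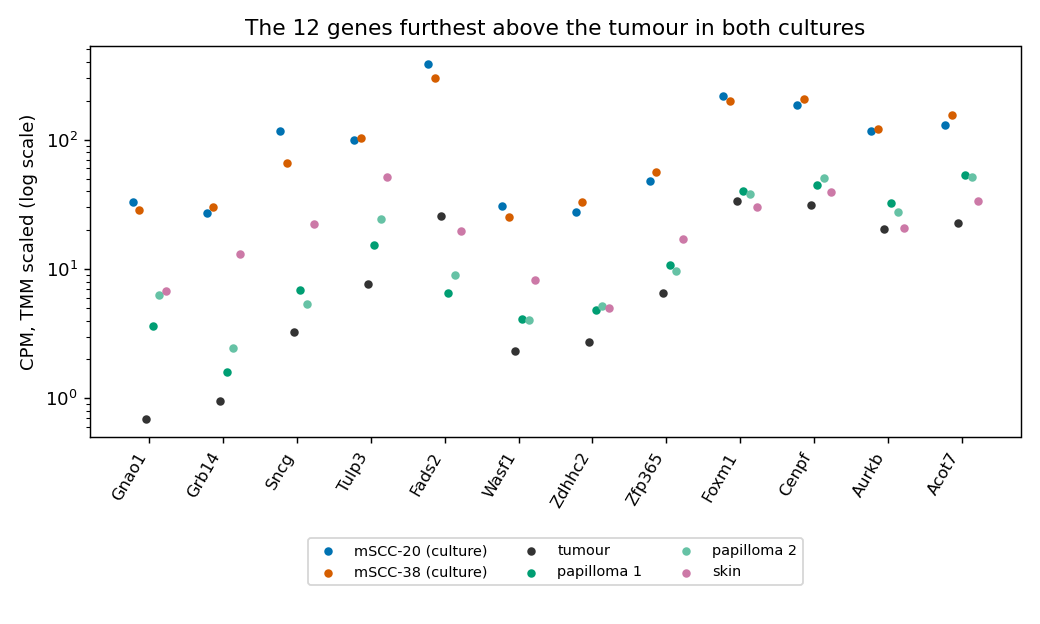
CPM on a log axis, by library, of the 12 genes with the largest difference between the tumour and the nearer line among those that rose. Both cultures lie above the 4 biopsies in each gene, from Gnao1 at 33.1 and 28.8 CPM to Acot7 at 129 and 155 CPM.

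Enzymes of fatty acid desaturation stood among the risen genes. Fads2 (chr19:10138654-10175993 in mm9), the first desaturase in the making of long polyunsaturated fatty acids, had 387 CPM in mSCC-20 and 302 CPM in mSCC-38, against 25.6 CPM in the tumour (log2 fold change 3.75, SE 0.44, adjusted p = 0.0401), with 6.56, 9.08 and 19.7 CPM in papilloma 1, papilloma 2 and skin. Its neighbour Fads1, 81384 bases away on the opposite strand and the next desaturase of that path, had 332 CPM in mSCC-20 and 378 CPM in mSCC-38, against 63.97 CPM in the tumour (log2 fold change 2.47, adjusted p = 0.0486). Scd2, which desaturates saturated fatty acids, had 1907 CPM in mSCC-20 and 2506 CPM in mSCC-38, against 471 CPM in the tumour and passed the rule of size but not the test (adjusted p = 0.0781). Fads1 and Scd2 were picked with their values in view. The sterol branch gave no call: 0 of 17 cholesterol genes passed edgeR (8 higher and 0 lower at an unadjusted p under 0.05, and 7 and 0 by DESeq2), with both lines above the tumour in 14 of 17, against 33.2% of all tested genes, and a median log2 ratio of 1.06 in mSCC-20 and 1.34 in mSCC-38, against -0.13 and -0.07 over all tested genes. Sqle, squalene epoxidase, had 298 CPM in mSCC-20 and 509 CPM in mSCC-38, against 218 CPM in the tumour.

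Both lines lay above the tumour in 11 of 15 genes of amino acid supply and in 10 of 13 genes of ribosome assembly, against 33.2% of all tested genes. The median log2 ratio of the amino acid list was 1.09 in mSCC-20 and 0.80 in mSCC-38. Phgdh, the first enzyme of serine synthesis, had 22.3 CPM in mSCC-20 and 22.4 CPM in mSCC-38, against 4.53 CPM in the tumour and passed the rule of size, as did Mthfd2, an enzyme of mitochondrial folate metabolism that was chosen after its value was seen, with 316 CPM in mSCC-20 and 129.7 CPM in mSCC-38, against 26.2 CPM in the tumour. Psat1, the next enzyme, had 1395 CPM in mSCC-20 and 402 CPM in mSCC-38, against 132 CPM in the tumour. Asns, asparagine synthetase, had 764 CPM in mSCC-20 and 332 CPM in mSCC-38, against 100.05 CPM in the tumour, and Atf4, the factor that induces them, lay within 2-fold with 349.9 CPM in mSCC-20 and 343 CPM in mSCC-38, against 187 CPM in the tumour. Of the 15 edgeR called 0 (5 higher and 0 lower at an unadjusted p under 0.05, and 4 and 0 by DESeq2). Ncl, nucleolin, had 2739.6 CPM in mSCC-20 and 1043 CPM in mSCC-38, against 899 CPM in the tumour. Npm1, nucleophosmin, had 634 CPM in mSCC-20 and 293 CPM in mSCC-38, against 146 CPM in the tumour. Nop56, a core protein of methylation-guiding particles, had 369.8 CPM in mSCC-20 and 131 CPM in mSCC-38, against 81.4 CPM in the tumour. Fbl, the methyltransferase of these particles, had 7.86 CPM in mSCC-20 and 3.98 CPM in mSCC-38, against 2.37 CPM in the tumour. The list's median log2 ratio was 1.95 in mSCC-20 and 0.49 in mSCC-38, and edgeR called 0 of 13 (0 higher and 0 lower at an unadjusted p under 0.05, and 0 and 0 by DESeq2).

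Glycolysis, antioxidant and growth signalling genes gave no call by edgeR. This was 0 of 14 hypoxia and glycolysis genes (1 higher and 0 lower at an unadjusted p under 0.05, and 0 and 0 by DESeq2), 0 of 12 NRF2 genes (1 higher and 1 lower at an unadjusted p under 0.05, and 1 and 1 by DESeq2), 0 of 14 YAP and SRF targets (1 higher and 2 lower at an unadjusted p under 0.05, and 1 and 2 by DESeq2) and 0 of 9 EGF receptor genes (0 higher and 1 lower at an unadjusted p under 0.05, and 0 and 1 by DESeq2). Ldha, lactate dehydrogenase, had 1226 CPM in mSCC-20 and 1315 CPM in mSCC-38, against 1082 CPM in the tumour. Slc2a1, the glucose transporter, had 354 CPM in mSCC-20 and 751 CPM in mSCC-38, against 619.98 CPM in the tumour, both within 2-fold of the tumour in both lines, like 5 of the 10 glycolysis genes at 10 CPM or more in all 3 libraries, against 57.9% of all genes. Vegfa had 29.9 CPM in mSCC-20 and 136 CPM in mSCC-38, against 253 CPM in the tumour. Car9, an enzyme strongly induced by low oxygen, had 0.195 CPM in mSCC-20 and 3.74 CPM in mSCC-38, against 2.82 CPM in the tumour. Of the 9 NRF2 genes at that level 5 were kept, with Gclm at 116, 204 and 145 CPM in mSCC-20, mSCC-38 and the tumour, while Nqo1, a quinone reductase, had 53.4 CPM in mSCC-20 and 119 CPM in mSCC-38, against 18.2 CPM in the tumour. Txnrd1 had 414 CPM in mSCC-20 and 198 CPM in mSCC-38, against 102 CPM in the tumour. Hmox1 had 152 CPM in mSCC-20 and 44.3 CPM in mSCC-38, against 64.5 CPM in the tumour. Of the 10 YAP and SRF targets at that level 6 were kept. Ctgf lay at least 4-fold lower in both lines, with 37.5 CPM in mSCC-20 and 14.5 CPM in mSCC-38, against 176 CPM in the tumour, Cyr61 was high in mSCC-20, with 623 CPM in mSCC-20 and 76.2 CPM in mSCC-38, against 90.5 CPM in the tumour, and Ankrd1 and Amotl2 had 22.99 CPM in mSCC-20 and 4.19 CPM in mSCC-38, against 10.6 CPM in the tumour and 232 CPM in mSCC-20 and 59.9 CPM in mSCC-38, against 81.9 CPM in the tumour. Axl, a receptor kinase chosen after its value was seen, passed the rule of size, with 881 CPM in mSCC-20 and 1158 CPM in mSCC-38, against 169.5 CPM in the tumour (adjusted p = 0.0546). Egfr, the receptor of EGF, had 35.6 CPM in mSCC-20 and 157 CPM in mSCC-38, against 178 CPM in the tumour, and its ligands differed: Hbegf lay at least 4-fold lower in both lines, with 56.9 CPM in mSCC-20 and 25.3 CPM in mSCC-38, against 351 CPM in the tumour, Ereg was kept, with 114 CPM in mSCC-20 and 76.00 CPM in mSCC-38, against 93.5 CPM in the tumour. Areg had 19.8 CPM in mSCC-20 and 36.4 CPM in mSCC-38, against 76.1 CPM in the tumour.

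Of 12 p53 targets and cell cycle inhibitors, both lines lay above the tumour in 5 and below it in 5, with the lines on opposite sides in 2. These are near the shares of all tested genes, which were 33.2% above, 42.0% below and 24.8% on opposite sides. Cdkn1a, the p21 inhibitor, had 325 CPM in mSCC-20 and 121 CPM in mSCC-38, against 196 CPM in the tumour. Mdm2, a p53 target that degrades p53, had 221 CPM in mSCC-20 and 111 CPM in mSCC-38, against 166 CPM in the tumour. Both genes stayed within 2-fold of the tumour in each line. Cdkn2b, the p15 inhibitor, lay lower in both, with 2.27 CPM in mSCC-20 and 5.88 CPM in mSCC-38, against 92.6 CPM in the tumour. Cdkn2a, which encodes p16 and p19Arf, had 23.8 CPM in mSCC-20 and 0 CPM in mSCC-38, against 96.5 CPM in the tumour. Fos had 236 CPM in mSCC-20 and 4.797 CPM in mSCC-38, against 59.5 CPM in the tumour. Egr1 had 409.6 CPM in mSCC-20 and 8.297 CPM in mSCC-38, against 148 CPM in the tumour. Jun had 168 CPM in mSCC-20 and 57.4 CPM in mSCC-38, against 99.8 CPM in the tumour. Fosl1 had 126 CPM in mSCC-20 and 33.1 CPM in mSCC-38, against 34.8 CPM in the tumour, and the lines lay on opposite sides of the tumour in 9 of 10 genes of the immediate early list, against 24.8% of all tested genes. In the TGF-beta list Tgfb1 was kept, with 72.01 CPM in mSCC-20 and 160.3 CPM in mSCC-38, against 102 CPM in the tumour. Tgfb2 had 0.584 CPM in mSCC-20 and 9.78 CPM in mSCC-38, against 12.9 CPM in the tumour. Inhba had 13.8 CPM in mSCC-20 and 9.504 CPM in mSCC-38, against 24.8 CPM in the tumour. Tgfbi, a matrix protein induced by TGF-beta, had 17.3 CPM in mSCC-20 and 647 CPM in mSCC-38, against 722 CPM in the tumour. By edgeR 0 of 12 p53 genes (2 higher and 1 lower at an unadjusted p under 0.05, and 2 and 1 by DESeq2), 0 of 10 immediate early genes (0 higher and 0 lower at an unadjusted p under 0.05, and 0 and 0 by DESeq2) and 0 of 12 TGF-beta genes (0 higher and 0 lower at an unadjusted p under 0.05, and 0 and 0 by DESeq2) were called.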

How the data were processed

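RNA was measured in 6 mouse libraries: the lines mSCC-20 and mSCC-38, 1 tumour, 2 papillomas and 1 healthy skin. Per the labels' protocols, total RNA came from Qiazol and a miRNeasy kit, and the NEBNext small RNA kit for SOLiD gave the libraries. The authors deposited 1 table of 23726 gene models with a raw count and an RPKM value per library, and the submitters' processing notes name build mm9. Which aligner, counter and strand setting were used is not given in the sources used here. Overlapping and near-identical genes may therefore share reads. The deposited counts are whole numbers without normalisation, and the authors' RPKM values, which imply totals of 99.2% to 99.6% of the summed counts, served only as a check.

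From the counts, edgeR 4.0.16 (limma 3.58.1, R 4.3.3; TMM, the tool's own filter for weakly counted genes, quasi-likelihood test) was fitted to all 6 libraries in 4 groups, which leaves 2 residual degrees of freedom, from the lines and the papillomas (common dispersion 0.305). The contrast is culture over tumour. The labels do not say that samples of a group came from separate animals, so p-values reflect just the spread among these libraries, part of which may be technical. The SE was worked back from the log2 fold change and edgeR's F statistic. The rule of size and its thresholds are given with the results. Coordinates are those of the table. The steps were tested on simulated counts. Alternatives were DESeq2 1.42.0, other scalings, no filter, other pseudocounts and thresholds, only 3 libraries, and leaving out each line or papilloma.

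Named genes are the first 4 of each of 40 lists (509 entries, 504 in the table) and, per direction, 12 more. These are the 12 furthest from the tumour in the nearer line among genes that passed both criteria. Other genes in the text were picked with their values in view, also where the text does not say so. Some genes under this rule are not reported here. The comparison and the lists were chosen with earlier results of these data known. Ly6g, Hba-a2, Flg, Sprr2a and Hmgcs1 had no usable model and were not analysed here.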

Additional observations from a re-analysis of the deposited data

Results flagged for a closer look

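Among the named genes, Vim and Tnf lay at least 4-fold above the tumour in one line and at least 4-fold under it in the other. Vim had 1.62 CPM in mSCC-20 and 3989.5 CPM in mSCC-38, against 787 CPM in the tumour, a log2 ratio of mSCC-38 over mSCC-20 of 10.88 with 0.5 CPM added. Tnf had 58.9 CPM in mSCC-20 and 0.302 CPM in mSCC-38, against 7.71 CPM in the tumour, a log2 ratio of mSCC-38 over mSCC-20 of -6.21. Each line is 1 library, so the difference was not tested. Over all genes with at least 10 CPM in 1 of the 3 libraries, 62 showed this pattern, 41 with mSCC-38 above the tumour and 21 with mSCC-20 above it.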

How the results depend on the processing

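The counts over all genes depended on how the spread was estimated more than on scaling. Fits without 1 line, without 1 papilloma or with only the 3 libraries each leave 1 residual degree of freedom. They differ in whether the spread comes from the papillomas or from the lines. DESeq2's Wald test gave 742 genes higher and 2268 lower, against edgeR's 28 and 734. With only the 3 libraries compared, edgeR gave 0 higher and 0 lower, and leaving out either papilloma also gave 0 and 0; by construction these fits have 1 residual degree of freedom. Leaving out a line, so that the spread came from the papillomas, gave 2519 to 4056 higher and 4060 to 5335 lower, so over the fits that leave out 1 library the counts ran from 0 to 4056 higher and from 0 to 5335 lower. Total-count scaling, DESeq2's size factors and no filter gave 25 to 32 higher and 701 to 905 lower, and 23 and 683 of edgeR's calls were shared with total-count scaling. Relative to TMM, total-count scaling shifts every log2 ratio by 0.02 in mSCC-20 and 0.13 in mSCC-38, and DESeq2's size factors by -0.08 and -0.05.

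Under the rule of size, a minimum of 1 CPM gave 1661 genes lower, against 867. At 8-fold 11 genes were higher, against 100, and at 1.5-fold 2362 were kept, against 4589. With 1 line alone, 296 to 635 genes were higher, 1082 to 1508 lower and 5208 to 6795 kept. The other scalings and pseudocounts stayed within 1.5 times of these counts.

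Among named genes, none of the called values changed sign. Genes that were not called took the opposite sign, and passed the test, when 1 line was left out. Without mSCC-20 (culture replicate 1) these were Fos (log2 fold change -3.63), Jun (-0.80), Egr1 (-4.16) and Tnf (-4.66). Without mSCC-38 (culture replicate 2) they were Vim (-8.92), Cdh2 (-4.98) and Zeb1 (-3.28). Leaving out the other line gave 2.34, 4.19 and 1.76 for Vim, Cdh2 and Zeb1, and 1.99, 0.76, 1.47 and 2.94 for Fos, Jun, Egr1 and Tnf. The cause was not tested. No paired analysis was possible because no label ties a line to the tumour, and the number 1 that mSCC-20 and the tumour both carry only names them. A single tumour library limits every statement to this biopsy.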

Other observations

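Further genes that separate the lines were seen outside the comparison with the tumour. Xist, the RNA that silences one X chromosome in female cells, had 2.37 CPM in mSCC-20 and 474 CPM in mSCC-38, against 2248 CPM in the tumour, 776 and 996 CPM in papillomas 1 and 2 and 984 CPM in skin. The Y-linked genes Eif2s3y and Kdm5d had at most 2 counts in any library. Anp32a, which encodes a histone-binding protein, had 108 CPM in mSCC-20 and 0.935 CPM in mSCC-38, against 23.0 CPM in the tumour. These genes were chosen after their values were seen, and no cause was tested.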
